A study of Mus musculus with 8 samples.

Results

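Genes of water and ion transport, 9 of the 55933 in the deposited gene table, were chosen by name: the aquaporins Aqp1, Aqp3 and Aqp5, the sodium pump subunit Atp1b1, the cotransporter Slc12a2, the sodium channel subunits Scnn1a, Scnn1b and Scnn1g, and the chloride channel Cftr. RNA-seq was done on mammary epithelial preparations from 4 control and 4 cKO female C57BL/6 mice at pregnancy day 14.5, and each mouse gave 1 library. The cKO mice carried K14-rtTA, teto-Cre and 2 floxed Bmpr1a alleles, and Cre was induced with doxycycline in the drinking water. The controls were littermates by the methods and are named WT in the sample labels, while their exact genotype and whether they received doxycycline are not given in the sources used here. The K14 promoter drives deletion in myoepithelial cells, but the glands were digested with collagenase and hyaluronidase, a step meant to take out fat, and freed of red cells, with no sorting described for these libraries, so every library holds luminal, myoepithelial and other cells together.

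Bmpr1a, the targeted gene, was 10.6, 11.7, 8.74 and 9.52 FPKM in the control libraries against 12.0, 12.0, 10.2 and 10.4 FPKM in the cKO libraries. FPKM counts fragments per kilobase of a gene and is scaled to library size. In the deposited values that size followed a median-of-ratios size factor, set by the median gene ratio between libraries, and not the reads on genes. The 4 values of a group are listed throughout in the order of replicates 1 to 4. The groups overlapped, and Bmpr1a RNA was not lower in the libraries labelled cKO (exact permutation test, two-sided, p = 0.257). The table gives 1 value per gene, so the floxed exon alone was not analysed here. Every direction below therefore rests on the labels. Named after their values were seen, Wap averaged 38.5 FPKM in control and 186 FPKM in cKO libraries and Csn2 1653 and 3409 FPKM, both higher in 4 of 4 cKO libraries, and Trp63 averaged 3.58 and 2.45 FPKM, lower in 4 of 4, which are the directions the study describes for its cKO mice. Lalba, which it also describes as higher, overlapped, and of 10 myoepithelial markers 6 had a higher and 4 a lower mean in cKO, with 1 higher (Oxtr) and 2 lower (Krt14 and Trp63) at an unadjusted p under 0.05 in limma. Markers matched the labelled tissue. The luminal keratin gene Krt8 averaged 1763 FPKM in control and 1780 FPKM in cKO libraries, and Acta2, a contractile gene of myoepithelial cells, averaged 825 and 953 FPKM. Reads on genes ranged from 16456480 to 18778823 per control library and from 16123108 to 19896988 per cKO library (exact permutation test, two-sided, p = 0.6).

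Water crosses epithelia through aquaporins, along gradients that ion transport sets up. The sodium pump exports sodium at the basolateral side, the cotransporter NKCC1 brings sodium, potassium and chloride in from the same side, and the channels CFTR and ENaC move chloride and sodium across the apical side. In the mammary gland these steps help set the volume and the low sodium content of milk once secretion begins.

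All 9 genes passed the filter of a mean of at least 0.5 FPKM, and limma on log2(FPKM + 1) with Benjamini-Hochberg adjustment called 0 of them, against 0.892% of the 15143 genes tested. At an unadjusted p under 0.05 it called 2 of the 9, Aqp1 and Scnn1b, both lower in cKO, where 16.4% of all genes tested were called, 7.53% lower and 8.85% higher. With limma-voom on reads recovered from the FPKM, 0 of the 9 were called after adjustment, against 1.66% of all genes, and 2 at an unadjusted p under 0.05, against 17.0%. For 1 of the 9, Aqp1, the groups did not overlap, against 10.7% of all genes tested. These shares over all genes stand beside each count of a list below. A p that misses the threshold does not show that a gene was alike in both groups, so intervals are given. Log2 differences are cKO minus control on the log2(FPKM + 1) scale, where a change in a gene with a low level looks smaller than it is, and counts of genes with a higher or lower mean use this scale. In bulk libraries, fewer cells of a type and less RNA per cell cannot be told apart.

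In control libraries Aqp1, Aqp3 and Atp1b1 had the highest means of the 9, at 87.3, 86.0 and 75.4 FPKM, and neighbours in this order overlapped. Slc12a2 followed at 16.4 FPKM, below every library of Atp1b1. Scnn1b at 3.89 FPKM and Aqp5 at 3.35 FPKM overlapped, and Scnn1a at 1.90 FPKM lay below both. Scnn1g at 1.12 FPKM and Cftr at 0.904 FPKM overlapped at the low end.

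**Figure D1:**
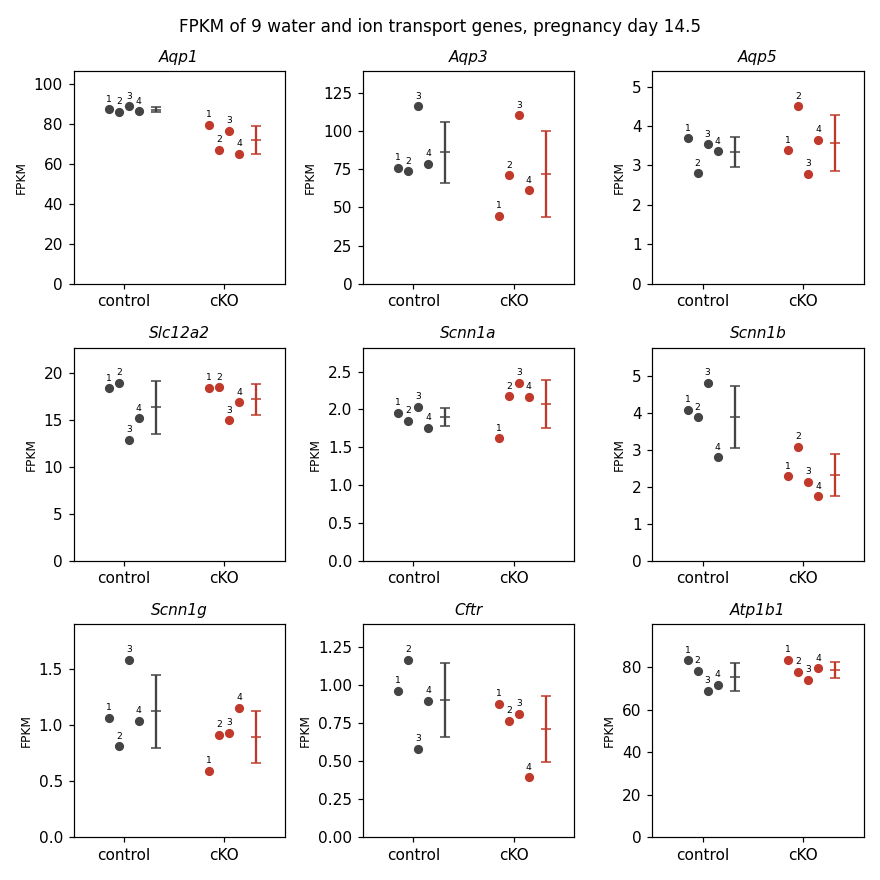
FPKM of each of the 9 genes in the 4 control and 4 cKO libraries, with the replicate number above each point and the group mean and SD (n = 4) as a bar beside the points. Each vertical axis starts at 0 FPKM. The 4 cKO points of Aqp1, at 65.2 to 79.7 FPKM, lie below the 4 control points, at 86.3 to 88.9 FPKM, and the groups of the other genes overlap.

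Aqp1 encodes a water channel known from capillary endothelium and red cells. In GRCm38 it spans chromosome 6 from 55336432 to 55348555. Aqp1 was 87.5, 86.3, 88.9 and 86.3 FPKM in the control libraries against 79.7, 67.2, 76.7 and 65.2 FPKM in the cKO libraries, on 2914 to 4257 reads. The cKO libraries all lay below the controls, and the control libraries lay close together. The means were 87.3 ± 1.26 FPKM in control and 72.2 ± 7.07 FPKM in cKO (SD, n = 4 each). Aqp1 differed by -0.28 on the log2 scale (95% interval -0.45 to -0.10, standard error 0.08). In limma the unadjusted p was 0.00584, and after Benjamini-Hochberg adjustment it was 0.132. Taken separately, replicates 1 and 2 gave -0.24 and replicates 3 and 4 gave -0.31, 2 sets whose libraries deviated together in both groups.

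Beside Aqp1, 4 of 10 endothelial markers were lower at an unadjusted p under 0.05 (Vwf, Eng, Pecam1 and Emcn), and 0 were higher. Of all genes tested, 7.53% were lower and 8.85% higher at that p. After adjustment 1 of the 10, Vwf, was lower (log2 difference -0.46, lower in 4 of 4 cKO libraries, limma adjusted p = 0.0268 with Benjamini-Hochberg adjustment), against 0.892% of all genes called. The mean of log2(FPKM + 1) was lower in cKO for all 10, though for Esam the log2 difference was only -0.00323, with FPKM means of 12.07 in control and 12.08 in cKO libraries. The summed level of the list was 130.1, 120.1, 129 and 119 FPKM in the control libraries against 124, 104, 87.5 and 106 FPKM in the cKO libraries, which overlapped (two-sided p = 0.0857, exact permutation test). Its most abundant gene, Cdh5, averaged 36.1 FPKM in control and 31.0 FPKM in cKO libraries, and no gene of the list was at 0 in any library. Erythroid markers summed to 25.5 ± 3.31 FPKM in control and 18.2 ± 6.53 FPKM in cKO mice (SD, n = 4 each), mostly Hba-a1, with a lower mean in cKO for 4 of the 5 genes tested, 2 of them (Hba-a1 and Hba-a2) at an unadjusted p under 0.05 and 0 after adjustment in limma, while Slc4a1 and Epb42 averaged under 0.01 FPKM in both groups. The part of these cells in the lower Aqp1 was not tested.

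Aqp3 encodes an aquaglyceroporin, a channel for water and glycerol found on the basolateral side of many epithelia. It lies on chromosome 4 from 41092722 to 41098183. Aqp3 was 75.7, 73.6, 116 and 78.3 FPKM in the control libraries against 44.5, 71.0, 110.4 and 61.3 FPKM in the cKO libraries. Replicate 3 was the highest library in both groups, the other 3 cKO libraries were below every control library, and the groups overlapped. The log2 difference was -0.31 (95% interval -0.89 to 0.28), with a limma adjusted p of 0.608 (Benjamini-Hochberg). Without cKO replicate 3, the only cKO library not below every control, the log2 difference was -0.54, and the overlap was gone. Leaving out that library removes the overlap by choice, so this supports nothing. The unadjusted p was then 0.0289 and the adjusted p 0.245 (limma, Benjamini-Hochberg; 0.245 to 0.868 over the alternatives). The difference shrank to -0.107 without cKO replicate 1 and to -0.155 without control replicate 3.

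Aqp5, a water channel of secretory glands, lies on chromosome 15 from 99590782 to 99594829. It was 3.69, 2.80, 3.54 and 3.36 FPKM in the control libraries against 3.39, 4.50, 2.79 and 3.65 FPKM in the cKO libraries, on 115 to 193 reads. The groups overlapped, with cKO replicate 2 the highest library and cKO replicate 3 the lowest. Aqp5 differed by 0.07 on the log2 scale (95% interval -0.20 to 0.34), and without cKO replicate 2 it changed sign to -0.02. Without cKO replicate 3 or control replicate 1 or 2 it was 0.155, 0.105 or 0.0043. Of the 12 aquaporin genes in the table, Aqp1 and Aqp3 held nearly all the summed FPKM. The share of Aqp1 was 49.5% ± 4.81 in control and 49.6% ± 9.12 in cKO mice (SD, n = 4 each). Aqp7, an aquaglyceroporin, was the highest of the other 9 aquaporins at 0.652 FPKM in control and 0.579 FPKM in cKO libraries, and it was the only one of these 9 to pass the filter.

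Atp1b1 encodes the β1 subunit of the sodium pump, on chromosome 1 from 164437109 to 164458355. It was 83.1, 78.0, 68.8 and 71.5 FPKM in the control libraries against 83.3, 77.6, 73.8 and 79.3 FPKM in the cKO libraries. The groups overlapped, and replicates 3 and 4 were the lowest control libraries. Atp1b1 differed by 0.06 on the log2 scale (95% interval -0.11 to 0.23), and the sign turned, to -0.00039, when each library was scaled to the same sum of FPKM (TPM). With a library left out it ranged from 0.019 (without control replicate 3) to 0.109 (without control replicate 1). An exon of Atp1b1 overlaps Nme7 on the other strand, which had 166 to 219 reads against 3552 to 4954 for Atp1b1, and strand-specific counting is not stated.

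Among 13 other pump subunits and FXYD regulators, 10 passed the filter. Of these, 9 had a lower mean in cKO, also under each other scaling. Over all genes tested, 7540 of 15143 had a lower mean. That count was 9361 in TPM, 8317 in TPM without the milk genes and 9293 with library totals. Limma called 2 of the 10 at an unadjusted p under 0.05, both lower, and 0 after adjustment, while limma-voom called 1 after adjustment, Fxyd6. The count at an unadjusted p under 0.05 was 5, all lower, under TPM scaling or library totals, and 4 in TPM without the milk genes. The median log2 difference of the 10 was -0.21, against 0.000715 over all genes tested. Fxyd6, a small regulator of the pump, was 1.92, 2.49, 2.44 and 2.97 FPKM in the control libraries against 1.46, 1.46, 1.5 and 1.6 FPKM in the cKO libraries. All 4 cKO libraries of Fxyd6 were below the controls, with a log2 difference of -0.46 and a limma adjusted p of 0.0717 (Benjamini-Hochberg). Fxyd6 was called with replicates 1 and 2 against 3 and 4 as a block (limma adjusted p 0.0407), a split that the labels do not give. It was also called with library totals, with protein-coding genes alone and with limma-voom, and in no other alternative.

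Slc12a2 encodes NKCC1, on chromosome 18 from 57878678 to 57946821. It was 18.4, 19.0, 12.9 and 15.2 FPKM in the control libraries against 18.4, 18.5, 15.0 and 16.9 FPKM in the cKO libraries. In both groups replicates 1 and 2 were higher than replicates 3 and 4, and the groups overlapped. Slc12a2 differed by 0.08 on the log2 scale (95% interval -0.20 to 0.36), -0.01 within replicates 1 and 2 and 0.17 within replicates 3 and 4. Without control replicate 3 it was -0.02, and with any other library left out 0.044 to 0.151. Of 8 other cation chloride cotransporters, 4 passed the filter and 1 was lower at an unadjusted p under 0.05, or 2 in TPM, with or without the milk genes, and with library totals. The 1 gene, Slc12a7, a potassium chloride cotransporter, was 3.28 ± 0.111 FPKM in control and 2.75 ± 0.0747 FPKM in cKO mice (SD, n = 4 each), with every cKO library below the controls. Slc12a4, the most abundant of the 4, was 7.52 FPKM in control and 6.44 FPKM in cKO libraries, and the groups overlapped.

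WNK kinases and the kinases SPAK and OSR1 are known to regulate these cotransporters. Of 6 genes 5 passed the filter, with 1 higher and 1 lower at an unadjusted p under 0.05, and 0 higher and 1 lower in TPM or with library totals. Wnk4 was 4.05, 4.94, 5.14 and 5.46 FPKM in the control libraries against 2.69, 3.33, 3.48 and 3.73 FPKM in the cKO libraries. All 4 cKO libraries of Wnk4 were below the controls, with a log2 difference of -0.45 and an adjusted p of 0.0819 (limma, Benjamini-Hochberg). Wnk4 was called with replicates 1 and 2 against 3 and 4 as a block (limma adjusted p 0.0342), a split that the labels do not give. It was also called in TPM and with library totals, and in no other alternative (limma-voom adjusted p 0.0628). Oxsr1, the gene of OSR1, was 17.8 ± 0.390 FPKM in control and 20.4 ± 1.49 FPKM in cKO mice (SD, n = 4 each), with every cKO library above the controls and a limma adjusted p of 0.211 (Benjamini-Hochberg). An exon of Wnk4 overlaps an antisense gene that had at most 11 reads in a library.

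The epithelial sodium channel ENaC is built from the subunits α, β and γ, encoded by Scnn1a, Scnn1b and Scnn1g. Scnn1b and Scnn1g are neighbours on chromosome 7, from 121865038 to 121918514 and from 121734479 to 121768475, with 96562 bases between them, and Scnn1a is on chromosome 6 from 125320659 to 125344943. Scnn1b was 4.08, 3.88, 4.81 and 2.79 FPKM in the control libraries against 2.28, 3.09, 2.13 and 1.74 FPKM in the cKO libraries, on 85 to 212 reads. The groups overlapped, since cKO replicate 2 was above control replicate 4, and the other 3 cKO libraries were below every control library. The means were 3.89 ± 0.832 FPKM in control and 2.31 ± 0.566 FPKM in cKO (SD, n = 4 each). Scnn1b differed by -0.56 on the log2 scale (95% interval -0.91 to -0.21, standard error 0.15). In limma the unadjusted p was 0.00553, and after Benjamini-Hochberg adjustment it was 0.130. Replicates 1 and 2 alone gave -0.44, and replicates 3 and 4 alone -0.68. With limma-voom the Scnn1b difference was -0.753, and with 0.1 in place of 1 added to the FPKM it was -0.731.

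Scnn1a was 1.96, 1.84, 2.04 and 1.75 FPKM in the control libraries against 1.62, 2.17, 2.35 and 2.16 FPKM in the cKO libraries. Its groups overlapped through cKO replicate 1, the lowest library of all, and the log2 difference was 0.08 (95% interval -0.13 to 0.29), or 0.156 without cKO replicate 1 and 0.038 without cKO replicate 3. Scnn1g was 1.06, 0.811, 1.58 and 1.03 FPKM in the control libraries against 0.589, 0.912, 0.926 and 1.15 FPKM in the cKO libraries, on 34 to 79 reads. The groups overlapped, with a log2 difference of -0.16 (95% interval -0.46 to 0.14), or -0.061 without control replicate 3 and -0.077 without cKO replicate 1. With limma-voom the Scnn1g difference was -0.323, and with 0.1 in place of 1 added to the FPKM it was -0.291. As a share of the summed FPKM of the 3 subunits, Scnn1a held 27.6%, 28.2%, 24.2% and 31.4% in the control libraries against 36.0%, 35.2%, 43.4% and 42.8% in the cKO libraries. Every cKO share of Scnn1a was above every control share, while the FPKM of Scnn1a overlapped. The shares of the other subunits overlapped, at 50.1% to 59.4% in control and 34.4% to 50.8% in cKO libraries for Scnn1b, and at 12.4% to 18.7% and 13.1% to 22.8% for Scnn1g. These shares describe RNA levels per length and were not tested.

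Of 11 regulators of ENaC, all 11 passed the filter, and 4 were higher and 1 lower at an unadjusted p under 0.05. Over all genes tested, 8.85% were higher and 7.53% lower at that p. After adjustment limma called 0 of the 11. Under TPM scaling or library totals the split was 4 higher and 3 lower, and in TPM without the milk genes 5 and 2. The protease genes Tmprss4 and St14 and the protease inhibitor gene Spint1 had every cKO library above the controls. For Spint1 the margin was small, 74.78 FPKM in cKO replicate 3 against 74.61 FPKM in control replicate 3. The limma adjusted p of Tmprss4, St14 and Spint1 were 0.180, 0.246 and 0.243 (Benjamini-Hochberg). Tmprss4 was 1.46 ± 0.413 FPKM in control and 2.24 ± 0.339 FPKM in cKO, St14 was 83.5 ± 3.55 and 96.0 ± 8.43 FPKM, and Spint1 was 68.2 ± 5.03 and 79.2 ± 6.82 FPKM (SD, n = 4 each). Hsd11b2, whose enzyme inactivates glucocorticoids and so keeps the mineralocorticoid receptor for aldosterone, was 4.48, 5.55, 6.49 and 6.43 FPKM in the control libraries against 4.42, 3.85, 4.31 and 3.07 FPKM in the cKO libraries. All 4 cKO libraries of Hsd11b2 were below the controls, cKO replicate 1 by a small margin, with a limma adjusted p of 0.133 (Benjamini-Hochberg). Spint2, the most abundant of the 11, was 125 ± 15.0 FPKM in control and 134 ± 14.5 FPKM in cKO mice (SD, n = 4 each), with overlap.

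Cftr lies on chromosome 6 from 18170687 to 18322768. It was 0.966, 1.17, 0.584 and 0.899 FPKM in the control libraries against 0.881, 0.765, 0.811 and 0.395 FPKM in the cKO libraries, on 57 to 157 reads. The groups overlapped, control replicate 3 and cKO replicate 4 were the lowest of their groups, and the log2 difference was -0.15 (95% interval -0.45 to 0.14). Without cKO replicate 4 the Cftr difference was -0.057, without control replicate 2 -0.088 and without control replicate 3 -0.238. With limma-voom it was -0.373, and with 0.1 in place of 1 added to the FPKM it was -0.318. An exon of Cftr lies over an antisense gene with 0 reads in every library.

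Of 25 other chloride and volume-regulated anion channels, 17 passed the filter, 2 were higher at an unadjusted p under 0.05 and 0 lower, or 2 and 1 with library totals. Ano1, a calcium-activated chloride channel, was 37.4, 38.3, 38.1 and 33.8 FPKM in the control libraries against 44.9, 48.0, 45.4 and 52.2 FPKM in the cKO libraries. The cKO libraries of Ano1 all lay above the controls, by 0.36 on the log2 scale, with a limma adjusted p of 0.0584 (Benjamini-Hochberg). Ano1 was called with replicates 1 and 2 against 3 and 4 as a block (limma adjusted p 0.0382), a split that the labels do not give. It was also called with protein-coding genes alone and with limma-voom, and in no other alternative. Clcn3, a chloride proton exchanger of endosomes, was 3.22 ± 0.354 FPKM in control and 4.34 ± 0.362 FPKM in cKO (SD, n = 4 each), also without overlap. Clic1 was the most abundant of the 17, at 289 and 273 FPKM, with overlap.

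Over the 137 genes of the 11 wider lists, 85 passed the filter. In cKO libraries 13 had a higher and 10 a lower level at an unadjusted p under 0.05, and the median log2 difference was -0.02. The split was 11 higher and 16 lower under TPM scaling and 10 higher and 17 lower with library totals, and over all genes it moved from 1340 higher and 1140 lower to 789 and 1657 (TPM) and 864 and 1792 (library totals). The groups did not overlap for 19 of the 85, beside 10.7% of all genes tested. Some genes in these counts are named only after their values were seen, with control and cKO means in this order. Higher were Tsc22d3 (4.39 and 6.71 FPKM), Slc9a3r2 (6.77 and 8.27 FPKM), Slc9a4 (0.178 and 0.923 FPKM) and Slc34a2 (8.56 and 12.5 FPKM). Slc9a4 passed the filter only through the cKO libraries, so its place in these counts supports nothing. Lower were Atp1b3 (71.0 and 63.5 FPKM) and Car15 (1.11 and 0.780 FPKM).

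Limma called 1 of the 85 after adjustment, Kcnk6, against 0.892% of all genes, and limma-voom called 3, Fxyd6, Ano1 and Kcnk6, against 1.66%. Kcnk6 encodes a potassium channel of the family with paired pore domains, on chromosome 7 from 29221926 to 29232515. It was 1.58, 1.78, 1.90 and 1.62 FPKM in the control libraries against 4.01, 2.92, 2.53 and 3.29 FPKM in the cKO libraries, on 114 to 321 reads. The cKO libraries of Kcnk6 all lay above the controls. The gene rose by a log2 difference of 0.61 (standard error 0.11), and limma with Benjamini-Hochberg adjustment gave an adjusted p of 0.0461 (0.0214 to 0.128 over the 20 alternatives). The call was kept in 8 of the 20. It was lost without control replicate 1, 2, 3 or 4 (limma adjusted p 0.122, 0.103, 0.0946 and 0.128) and without cKO replicate 1, 2 or 4 (0.0621, 0.0877 and 0.116). It was also lost with no filter on low values, with library totals, and in TPM with the milk genes in the sum or left out (limma adjusted p 0.111, 0.0557, 0.0701 and 0.0634). With same-numbered replicates as a block the call was lost too (limma adjusted p 0.0819).

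Carbonic anhydrases interconvert carbon dioxide and bicarbonate. Of 16, 10 passed the filter, 2 higher and 2 lower at an unadjusted p under 0.05, against 8.85% and 7.53% of all genes tested. Car3 was 1.77, 1.47, 1.56 and 1.6 FPKM in the control libraries against 3.06, 9.50, 2.95 and 8.93 FPKM in the cKO libraries. Every cKO library was above the controls, and cKO replicates 2 and 4 were the highest, with a log2 difference of 1.3 and a limma adjusted p of 0.104 (Benjamini-Hochberg). The adipocyte gene Cfd, named after its values were seen, was also highest in these libraries. It was 19.5 and 23.9 FPKM there against 3.26 and 6.15 FPKM in cKO replicates 1 and 3 and 1.19 to 2.57 FPKM in control libraries. Not every adipocyte marker had this pattern, as Pparg was highest in cKO replicate 1 and Lipe in control replicate 3. Of 10 adipocyte markers, 7 passed the filter, 5 with a higher and 2 (Pparg and Lipe) with a lower mean in cKO. Limma called 3 of them higher at an unadjusted p under 0.05 (Cfd, Adipoq and Cidec), 0 lower, and 1, Cidec, higher after adjustment (adjusted p = 0.0377, Benjamini-Hochberg). Adipoq (0.303 and 1.25 FPKM) and Cidec (0.386 and 1.56 FPKM) passed the filter only through the cKO libraries, so their calls support nothing. The summed level of the 10 was 103, 88.9, 137 and 118 FPKM in the control libraries against 114, 148, 149.7 and 152 FPKM in the cKO libraries, mostly Fabp4, and 1 of the 10 was at 0 in a library. These sums overlapped (two-sided p = 0.0857, exact permutation test), and unlike Car3 the sum in cKO replicate 3 was near that in replicates 2 and 4. The part of adipocytes in the Car3 level was not tested. Car4 was 2.26 ± 0.517 FPKM in control and 4.04 ± 0.908 FPKM in cKO, without overlap, and Car2, the most abundant, was 104 ± 7.39 and 85.9 ± 12.5 FPKM (SD, n = 4 each), with overlap.

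Of 11 sodium proton exchangers and NHERF scaffolds, 8 passed the filter, 2 higher and 1 lower at an unadjusted p under 0.05, or 1 and 1 with library totals. The scaffold gene Slc9a3r1 was the most abundant, at 168 and 184 FPKM, with overlap. Of 17 bicarbonate and anion exchangers, 8 passed the filter, 0 higher and 2 lower at an unadjusted p under 0.05. Slc4a11 was 4.05 ± 0.0518 FPKM in control and 3.11 ± 0.599 FPKM in cKO, and Slc4a3 was 1.70 ± 0.0239 and 1.38 ± 0.185 FPKM (SD, n = 4 each), both without overlap. Slc26a9 was the most abundant at 21.0 and 21.7 FPKM, with overlap.

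Of 13 epithelial potassium channels 5 passed the filter, and apart from Kcnk6 none had an unadjusted p under 0.05 in limma. Kcnn4, a calcium-activated channel, was the most abundant at 45.7 FPKM in control and 43.3 FPKM in cKO libraries. Of 8 sodium phosphate and iodide cotransporters 6 passed, with 1 higher at an unadjusted p under 0.05, and 0 in TPM or with library totals. Slc20a1 was the most abundant of these at 43.3 and 43.6 FPKM, and the groups of both genes overlapped.

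**Figure D2:**
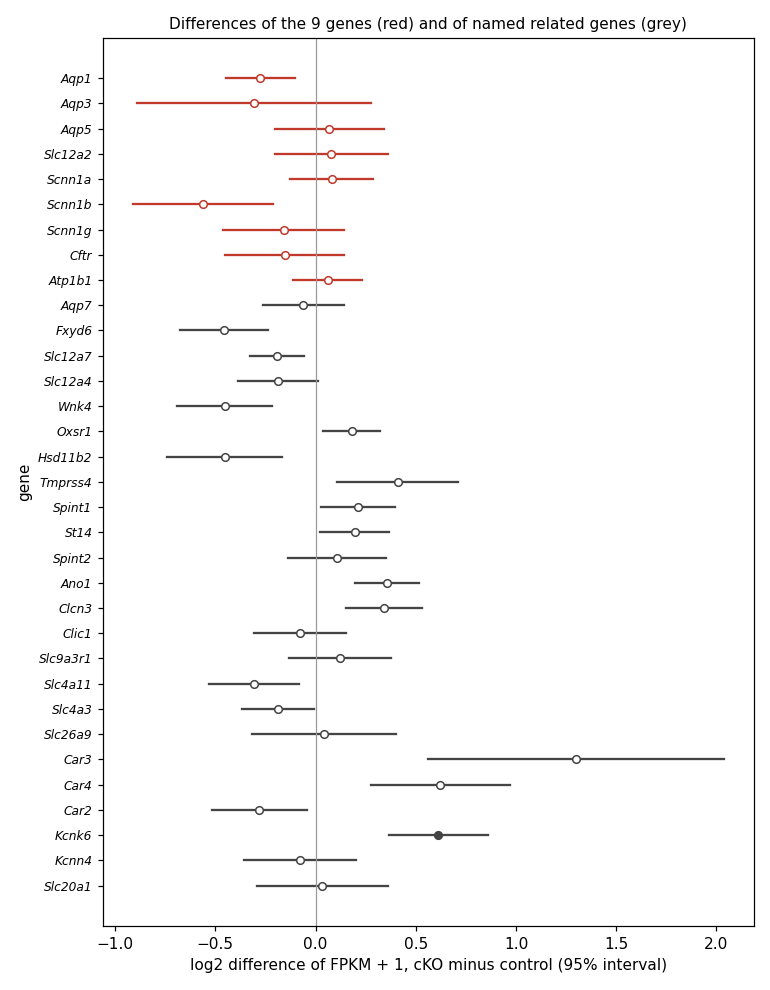
Log2 difference of FPKM + 1, cKO minus control, with its 95% interval from limma, for the 9 genes (red) and the named related genes (grey). The filled point, Kcnk6 at 0.61, has a Benjamini-Hochberg adjusted p under the threshold, and the open points do not.

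Of 10 luminal alveolar markers, the milk genes among them, 8 were higher in cKO at an unadjusted p under 0.05 and 4 after adjustment with limma. The exceptions were Kit and Lalba, whose groups overlapped, and Lalba in cKO replicate 3, at 14.5 FPKM, was below every control library. The sum of the 10 was 4333, 4775, 6214 and 6547 FPKM in the control libraries against 10474, 11433, 13301 and 18984 FPKM in the cKO libraries, led by Csn1s2a (p = 0.0286 by a two-sided exact permutation test, which is the smallest that 4 against 4 allows). Luminal hormone-sensing markers summed to 139 ± 13.1 FPKM in control and 112 ± 11.4 FPKM in cKO mice (SD, n = 4 each), led by Ly6a, and 1 of 9 tested, Cited1, was lower after adjustment in limma. Pan-luminal markers, led by Krt8, summed to 5374 ± 510 and 5242 ± 721 FPKM, and 0 of 5 had an unadjusted p under 0.05 in limma. Myoepithelial markers, led by Acta2, summed to 2359 ± 379 and 2220 ± 324 FPKM. Macrophage markers, led by Lyz2, summed to 341 ± 48.7 and 249 ± 52.0 FPKM, fibroblast markers, led by Col3a1, to 712 ± 266 and 539.6 ± 193 FPKM, and lymphocyte markers, led by Cd79a, to 16.8 ± 14.2 and 4.64 ± 1.2 FPKM. Control replicate 3 had the highest lymphocyte sum, 36.5 FPKM, and without it the control mean was 10.2 FPKM. Of the genes tested, 5 of 9 macrophage, 1 of 10 fibroblast and 4 of 7 lymphocyte markers were lower at an unadjusted p under 0.05, and 0 were higher. Over all genes tested, 7.53% were lower and 8.85% higher at that p. Some of these lymphocyte markers, Cd4 among them, passed the filter only through the control libraries. The part of these cells in the levels of the transport genes was not tested.

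Among 11058 other protein-coding genes with a mean of at least 1 FPKM, those with the pattern most like each of the genes at this level, thus not Cftr, over the 8 libraries were found by Pearson r of log2(FPKM + 1). They were Tmem117 (0.98) and Sncg (0.97) for Aqp1, Rbmx2 (0.99) and Cdkn2b (0.97) for Aqp3, and Patz1 (0.95) and Eapp (0.90) for Aqp5. Il6st (0.99) and Marf1 (0.99) were most like Slc12a2, and Kmt2e (0.98) and Kmt2c (0.98) most like Atp1b1. For the ENaC subunits they were Rps6ka4 (0.97) and Stambpl1 (0.93) for Scnn1a, Fndc10 (0.97) and Slx4 (0.97) for Scnn1b, and Sap30bp (0.98) and Csk (0.97) for Scnn1g. With 8 libraries and this many genes, values this high are a description of the libraries.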

How the data were processed

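RNA of mammary epithelium from 4 control and 4 cKO mice was sequenced. The authors deposited FPKM for 55933 genes, calculated after mapping to GRCm38 with Hisat2. The submitters' processing notes name StringTie 1.3.3b, featureCounts 1.5.0-p3 and the build mm9, but 99.7% of the 55480 gene identifiers found in GENCODE vM21 have its GRCm38 coordinates, as do all 9 genes. FPKM times gene length gave whole reads for 100% of values above 0 (tolerance 0.01 of a read). Groups were compared with limma 3.58.1 in R 4.3.3 on log2(FPKM + 1), empirical Bayes with trend and Benjamini-Hochberg adjustment over the 15143 genes whose FPKM averaged 0.5 or more. The procedure was tested on simulated data, but the outcome is not given here and supports no call. Single values used exact permutation tests. Python 3.11.15, pandas 2.3.3, scipy 1.17.1 and matplotlib 3.10.9 served other steps. The genes and lists were chosen with earlier results of these data known. Named are the 9 genes, list genes with an adjusted p under 0.05, up to 5 per list with an unadjusted p under 0.05, an average of 1 FPKM or more and no overlap, the most abundant gene of each list, and the 2 most alike in pattern; some genes of these lists are not reported here.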

Additional observations from a re-analysis of the deposited data

Results flagged for a closer look

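Among 114 groups of 4 libraries checked, in 10 a single library stood apart from its group. Chance alone gives about 5.7, and several of the 10 share a value. Aqp3 was 116 FPKM in control replicate 3 against 73.6 to 78.3 FPKM in the other controls, which also set that library apart in the summed aquaporin FPKM (210.0 against 164.0 to 169.5), the share of Aqp1 in it (42.3% against 50.9% to 52.6%) and the share of Aqp3 (55.3% against 44.9% to 46.2%). Slc12a4 was 6.12 FPKM in control replicate 1 against 7.83 to 8.08 FPKM. Spint1 was 89.4 FPKM in cKO replicate 4 against 74.8 to 76.8 FPKM. Slc26a9 was 28.6 FPKM in cKO replicate 1 against 19.0 to 19.95 FPKM. In the same library the erythroid markers summed to 28.0 FPKM against 14.6 to 15.2 FPKM and the adipocyte markers to 114 FPKM against 148 to 152 FPKM. The deepest control library, replicate 4, held 18778823 (1.87788e+07) reads, and the other controls 16456480 to 16642619.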

How the results depend on the processing

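Over the 20 alternatives, limma or limma-voom called 0 of the 9 genes after adjustment, except that Cftr was not tested with a mean of at least 1 FPKM. Aqp1 and Scnn1b kept a lower mean and an unadjusted p under 0.05 in each, with adjusted p of 0.0872 to 0.261 and 0.0828 to 0.267. With a library left out, 2 to 3 of the 9 had an unadjusted p under 0.05, and 1 to 2 did not overlap. The 3 came without cKO replicate 3, where, of 15175 genes tested, 1318 were higher and 1196 lower at such a p. Over all genes, overlap was not counted with a library left out, and 3 against 4 separates more readily than 4 against 4. The second gene without overlap was Cftr, Scnn1b, Scnn1a, Scnn1b or Aqp3 without control replicate 3 or 4 or cKO replicate 1, 2 or 3. In each case the library left out was the one that had overlapped, so this lack of overlap supports nothing. The log2 difference changed sign for Aqp5 without cKO replicate 2 (-0.025; -0.025 to 0.155 over the libraries left out), Slc12a2 without control replicate 3 (-0.023; -0.023 to 0.151) and Atp1b1 under TPM scaling (-0.00039), and the cause was not tested.

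Of the wider list 1 gene was called, Kcnk6 (in TPM also 1, Wnk4). The count was 0 in TPM without the milk genes, with no filter or with the replicate block (Kcnk6 limma adjusted p 0.0819). It was 2 with library totals (Fxyd6 and Wnk4) and 3 with limma-voom or protein-coding genes alone. With replicates 1 and 2 against 3 and 4 as a block it was 4 (Fxyd6, Wnk4, Ano1 and Kcnk6). With a library left out it was 0 to 1. Over all genes, 135 calls became 252 with limma-voom, 266 with protein-coding genes alone, 10 with no filter, 50 with the replicate block, 442 with the set block, and 0 to 78 with a library left out.

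Same-numbered libraries had correlations of deviations of 0.137, 0.1096, 0.116 and 0.0797, and not every library correlated best with its own number, so the numbers were not taken as pairs. Paired by number, the exact permutation test of Bmpr1a gave p = 0.125, the smallest that 4 pairs allow. Overlap has no value under the blocks, limma-voom or the choice of trend. Cftr, Scnn1g and Scnn1b rest on few reads, so counting error adds to their spread.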
